A study of Drosophila melanogaster with 2 samples.

Results

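Translation initiation factors (eIF) and elongation factors (eEF) are the proteins that load ribosomes onto messenger RNA and drive them along it. The 52 genes described here are the protein-coding genes of the Ensembl BDGP6 annotation whose symbol begins eIF or eEF, out of 13945 protein-coding genes, and they were set beside the genome-wide binding sites of the protein CG33017. Chromatin came from whole adult males of a Drosophila melanogaster line that carries CG33017 with GFP at its C-terminus, and an anti-GFP antibody was used for the immunoprecipitation (ChIP-seq), although the antibody entry of the labels reads CG33017. All animals carried the transgene. Their age is given as unknown in the labels, the number of flies per library is not given in the sources used here, and there were 2 biological replicates of 1 group and no second condition. No sample without the tag was analysed here, so signal that does not depend on the tagged protein could not be set apart.

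The 4 deposited peak lists were used. Each replicate had its own list of 30000 peaks, and the pooled replicates had a list of 30000. A further list of 4867 peaks was thresholded by the irreproducible discovery rate (IDR), which scores how well peaks repeat between replicates. Its peaks were the 4867 highest of the pooled list. A gene is called bound below when the IDR list holds a summit, the highest point of a peak, within 500 bp of any of its transcription start sites (TSSs). Signal is the value the authors' peak caller gave each peak; ranks run from 1, the highest signal in that list, and signals are not comparable between lists. In chromatin from whole animals, weak binding in many cells and strong binding in few cannot be told apart.

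As background, initiation begins when eIF2 carries the initiator transfer RNA to the small ribosomal subunit, on which eIF3, eIF1, eIF1A and eIF5 are assembled. The cap-binding protein eIF4E, the scaffold eIF4G and the helicase eIF4A recruit the messenger RNA, eIF2B recharges eIF2 with GTP, and eIF5B joins the subunits. In elongation, eEF1 delivers aminoacyl-transfer RNAs and eEF2 moves the ribosome by a codon. Several factors have paralogues in Drosophila, among them a family of eIF4E genes of which some are used mainly in the testis.

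The DNA under selected summits is shown first, because the sites differ in base composition and in whether they hold the DRE, the palindrome TATCGATA bound by the factor Dref. The genes shown are eIF4EHP and the 6 of 18 bound members with a DRE within 100 bp of the summit. They were picked for the DRE and do not represent the bound members, most of which had none there. Sequences are from the NCBI copy of Release 6, which has the dm6 coordinates, and run 5′ to 3′ on the strand of the named gene. They cover 50 bp each side of the summit, without bases annotated as UTR. Capitals mark DRE matches, and in eIF4EHP, the member site of highest signal, matches to TATAAA on either strand.
eIF4EHP (chr3R:24109149-24109249, minus strand): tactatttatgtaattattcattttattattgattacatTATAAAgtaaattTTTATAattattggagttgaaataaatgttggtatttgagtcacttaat
eEF1gamma (chr3R:29220104-29220171, plus strand): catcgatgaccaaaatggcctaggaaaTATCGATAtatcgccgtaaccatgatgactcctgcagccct
eIF2gamma (chr3R:15263465-15263551, minus strand): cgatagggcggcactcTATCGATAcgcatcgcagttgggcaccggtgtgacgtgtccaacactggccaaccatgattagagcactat
eIF3a (chr3R:4433896-4433964, minus strand): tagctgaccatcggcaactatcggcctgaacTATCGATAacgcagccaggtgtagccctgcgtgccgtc
eIF1 (chr3L:3222961-3223034, plus strand): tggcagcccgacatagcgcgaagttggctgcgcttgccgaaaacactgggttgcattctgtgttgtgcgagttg
The last is the higher of the sites in reach of eIF1, and it has no DRE within the printed bases. Of the 3 matches at eIF2gamma, 1 lies wholly within them. For eIF1 and for eIF1A and eIF2A, 28 bases around the DRE that lay within 100 bp of the summit are given.
eIF1 (chr3L:3223035-3223062, plus strand): gcagggcaacTATCGATAagcatttcgt
eIF1A (chr3R:18274453-18274480, plus strand): tgatgatagaTATCGATAgctttagcgg
eIF2A (chr3L:21824866-21824893, plus strand): tactatcgctTATCGATAcaccgcgtac

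CG33017 was bound at 18 of the 52 translation factor genes (34.6%), where 23.8% of all protein-coding genes were bound. The equal-sized lists of the 4867 highest peaks of each replicate gave 15 members (28.8%) in replicate 1, with 22.5% of all protein-coding genes, and 17 (32.7%) in replicate 2, with 24.1% of all. The bound share of the translation factors was above the genome-wide share in each list. No test of these shares was made, since the members are not replicates. For scale, 69 of 88 cytoplasmic ribosomal protein genes (78.4%) and 33 of 73 mitochondrial ones (45.2%) were bound in the IDR list.

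Several of the bound members shared their site with a neighbouring gene. At 9 of the 18 bound members no other gene had a TSS in reach of the highest peak (50%, against 45.6% of all bound protein-coding genes). The member's own TSS was the nearest to its highest peak at 11 of the 18 (61.1%), against 73.8% of all bound protein-coding genes. An opposite-strand TSS of another gene lay within 500 bp upstream at 11 of the 18 (61.1%), against 51.7%. When a summit counted only for the gene with the nearest TSS, 12 members (23.1%) remained, against 17.9% of all protein-coding genes. The same rule left 67 of 88 cytoplasmic ribosomal protein genes (76.1%) and 14 of 73 mitochondrial ones (19.2%). Of the 52 members, 21 (40.4%) had an opposite-strand TSS of another gene within 500 bp upstream, against 29.6% of all protein-coding genes, and 20 (38.5%) had more than 1 TSS, against 26.5%. The part of either property in the count was not tested.

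Below the IDR list, most other members still had a weaker peak. In the pooled list 39 of 52 (75%) had a summit in reach, against 61.3% of all protein-coding genes. The whole list of replicate 1 had 42 (80.8%, against 61.0% of all), that of replicate 2 had 40 (76.9%, against 59.2%), and 39 members had one in both (75%, against 52.7%). Among genes with a pooled peak, the median rank was 5233 for the 39 members and 6950 for all 8555. The median IDR signal was 178.7 over 18 members and 182.3 over all 3314 bound protein-coding genes.

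**Figure D1:**
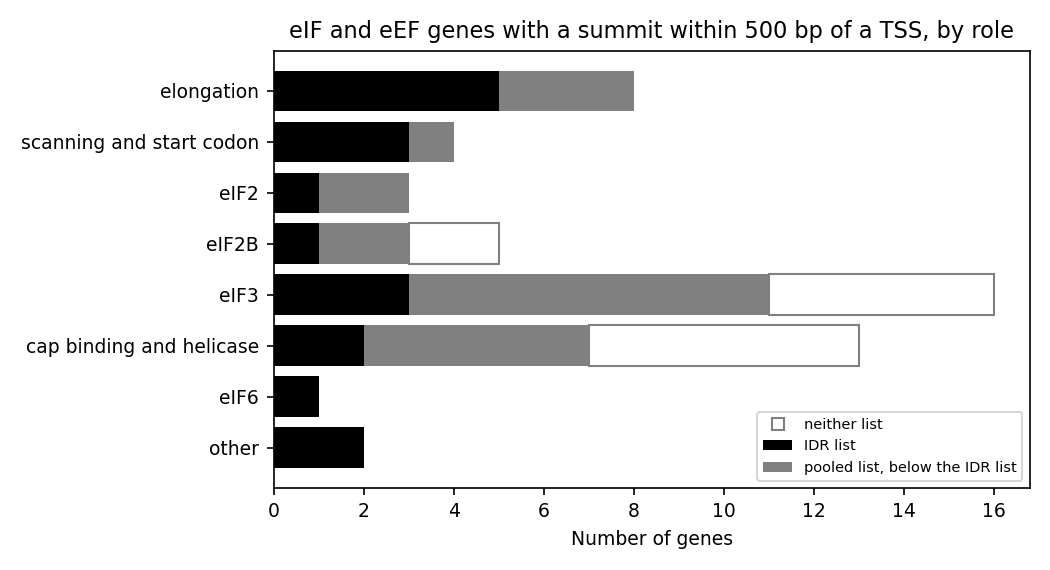
Horizontal bars count the genes of each role group, split into those with a summit of the IDR list, those with a summit of the pooled list below it, and those with neither. All 8 elongation genes had a pooled summit and 5 had an IDR summit, while 6 of 13 cap-binding and helicase genes had neither.

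By role, the bound members were 13 of 44 initiation (eIF) genes and 5 of 8 elongation (eEF) genes. The share of all protein-coding genes to set beside these and the role counts below is 23.8%. Role groups held 1 to 16 genes, so their counts separate little. The bound elongation genes were eEF1alpha1, eEF1gamma, eEF2, eEF5 and eEFSec. At eEF1gamma, a subunit of the complex that recharges eEF1alpha, the signal was 153.1 in replicate 1 (rank 968) and 182.0 in replicate 2 (rank 662). In the IDR list its peak had a signal of 331.7 (rank 769; 3R, 29219967 to 29220256), with the summit at -18 bp from the TSS and no other gene in reach. At eEF2, the translocation factor, the signal was 102.6 in replicate 1 (rank 1870) and 167.9 in replicate 2 (rank 749). The eEF2 peak of the IDR list (2L, 21682083 to 21682226, signal 260.6) had its summit at -10 bp from a TSS. Both genes had a summit nearly on the start site and ranked higher in replicate 2.

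The eEF1alpha1 locus, which encodes the carrier of aminoacyl-transfer RNA, held 3 IDR summits in reach of its 4 TSSs, more than any other member. Their signals were 236.0 at -29 bp (2R, 11892086 to 11892192), 222.4 at -83 bp (2R, 11890850 to 11891253) and 113.3 at 170 bp (2R, 11892090 to 11892493). The middle site was also in reach of ERp60, a protein disulfide isomerase gene, while the others lay in an intron of eEF1alpha1 with no other TSS in reach. The highest peak in reach had a signal of 114.5 in replicate 1 (rank 1550, at 40 bp) and 142.8 in replicate 2 (rank 996, at -29 bp). Its paralogue eEF1alpha2 was not bound: the best pooled peak at a start site ranked 11919 (at 57 bp), with 15670 in replicate 2 (at 54 bp). In replicate 1 the highest peak in reach of eEF1alpha2 was another site, at -477 bp (rank 11906). An IDR summit lay in an intron of eEF1alpha2, 1800 bp downstream of a TSS (3R, 31741258 to 31741661, signal 109.0).

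At eEF5, the factor elsewhere named eIF5A that carries hypusine, the signal was 120.3 in replicate 1 (rank 1429) and 127.8 in replicate 2 (rank 1211). The IDR signal of the eEF5 peak was 249.9 (2R, 24057670 to 24058073), 19 bp downstream of a TSS in the 5' UTR. The replicates gave eEF5 close ranks. The summit in reach of eEFSec, the selenocysteine elongation factor gene, was at -350 bp (2R, 21386369 to 21386772, signal 167.8) and at -55 bp from Acox57D-p, an acyl-CoA oxidase gene. For eEFSec the signal was 109.9 in replicate 1 (rank 1671) and 48.9 in replicate 2 (rank 5826), so it fell outside the top list of replicate 2. The exchange factor gene eEF1beta lay below the IDR list, with a pooled signal of 93.6 (rank 5672), 54.2 in replicate 1 (rank 5202) and 40.1 in replicate 2 (rank 7700). eEF1delta, of the same complex, had a pooled rank of 14489.

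Genes for scanning and start codon recognition were bound at 3 of 4. At eIF1, which guards start codon choice, the signal was 109.2 in replicate 1 (rank 1688) and 186.8 in replicate 2 (rank 637). Its highest IDR summit (3L, 3222898 to 3223104, signal 303.8) lay at -357 bp from eIF1 but at -24 bp from the ribosomal protein gene RpL28, on the other strand, and at -443 bp from snoRNA:Or-CD11a. A further IDR summit (3L, 3222986 to 3223389, signal 190.6) lay at -153 bp from eIF1 and was also in reach of RpL28. At eIF1A, a partner of eIF1, the signal was 56.9 in replicate 1 (rank 4822) and 87.5 in replicate 2 (rank 2339). The IDR summit at eIF1A (3R, 18274354 to 18274757, signal 172.4) was midway between divergent start sites, at -109 bp from eIF1A and -110 bp from Vps39, an endosomal tethering factor gene. A stronger IDR peak lay in an intron of eIF1A, 879 bp downstream of a TSS (3R, 18275503 to 18275679, signal 303.3).

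At eIF5B, the GTPase that joins the ribosomal subunits, the signal was 85.1 in replicate 1 (rank 2555) and 91.4 in replicate 2 (rank 2149). The summit at -31 bp (3L, 3460432 to 3460835, signal 181.2) had no other gene in reach, and replicate ranks were close. Intronic IDR summits lay 23297 bp (signal 280.6) and 27740 bp (signal 212.2) downstream of the same gene's starts, so the strongest peak of the eIF5B locus was not at a promoter. The fourth gene of the group, eIF5, which activates GTP hydrolysis by eIF2, lay below the IDR list, with a pooled signal of 74.2 (rank 7761), 35.8 in replicate 1 (rank 9029) and 51.6 in replicate 2 (rank 5371).

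Of the eIF2 genes only eIF2gamma was bound, and of the 5 eIF2B genes only eIF2Bgamma. At eIF2gamma the signal was 56.5 in replicate 1 (rank 4881) and 75.1 in replicate 2 (rank 2980), just outside the top list of replicate 1. Its summit (3R, 15263313 to 15263716, signal 132.5) lay at -57 bp from a TSS position that it shares with Su(var)3-9, a histone methyltransferase gene, and at -37 bp from Set. At eIF2Bgamma the signal was 76.6 in replicate 1 (rank 3047) and 96.6 in replicate 2 (rank 1981). That peak (2R, 15542469 to 15542872, signal 166.4) lay 10 bp downstream of the TSS with no other gene in reach.

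The other subunits of these complexes had lower-ranked peaks or none. eIF2beta was just below the IDR list, with a pooled signal of 100.1 (rank 5221) at 236 bp downstream of its TSS, 40.7 in replicate 1 (rank 7699) and 54.4 in replicate 2 (rank 4983). eIF2alpha had a pooled rank of 11642. In the eIF2B complex, eIF2Bdelta ranked 10318 and eIF2Bepsilon 18749, eIF2Bbeta had peaks in both replicate lists (ranks 28433 and 15528) but none in the pooled list, and eIF2Balpha had none in any list. A very strong IDR peak, rank 15, lay 681 bp upstream of eIF2Bbeta (X, 2703697 to 2704078, signal 1986), in reach of the TSS of Ugalt, a sugar-nucleotide transporter gene. An IDR summit in coding sequence of eIF2Balpha lay 1180 bp downstream of its TSS (3R, 29934506 to 29934909, signal 125.5).

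The eIF3 complex, the largest of the initiation factors, had 3 of its 16 genes bound. At eIF3h the signal was 187.5 in replicate 1 (rank 673) and 151.3 in replicate 2 (rank 895). It had a pair of IDR summits, with signals of 314.5 at 275 bp (2L, 5052345 to 5052568) and 278.7 at 9 bp downstream of a TSS (2L, 5052705 to 5052905), both also in reach of the gene senju, and the replicates differed in which was higher. At eIF3a, whose protein is a core scaffold of the complex, the signal was 48.6 in replicate 1 (rank 6023) and 87.1 in replicate 2 (rank 2348). The eIF3a summit (3R, 4433735 to 4434138, signal 129.6) lay at -42 bp from eIF3a and at -28 bp from the divergent gene CG1074.

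At eIF3m the signal was 54.6 in replicate 1 (rank 5145) and 60.5 in replicate 2 (rank 4227), and its IDR summit (2R, 14164882 to 14165285, signal 122.7) lay at -259 bp, within the 5' UTR of CG8323. Both eIF3a and eIF3m were outside the top list of replicate 1 and inside that of replicate 2. Among the other 13 genes, eIF3c (pooled rank 5233, signal 99.9), eIF3f1 (6509, signal 84.6) and eIF3k (6911, signal 80.9) were nearest to the IDR list. The replicate signals were 49.9 and 52.2 for eIF3c (ranks 5821 and 5278 in replicates 1 and 2) and 29.6 and 49.3 for eIF3k (ranks 11199 and 5735). Of the 39 members with a peak in both replicate lists, eIF3f1 differed most in rank. Its signal was 11.8 in replicate 1 (rank 26213) and 66.8 in replicate 2 (rank 3607). Pooled ranks of eIF3b, eIF3d1, eIF3i, eIF3j and eIF3l were between 9846 and 12161. Of these, eIF3b had no peak in the list of replicate 2 and eIF3l none in that of replicate 1. eIF3e had peaks in the replicate lists alone, and eIF3g1 and eIF3g2 had one in replicate 1 alone. eIF3d2 and eIF3f2 had none in any list, while their paralogues eIF3d1 and eIF3f1 had pooled peaks.

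Among the cap-binding and helicase genes 2 of 13 were bound, with signals at opposite ends of the list. eIF4EHP encodes a cap-binding relative of eIF4E that does not bind eIF4G and is known in Drosophila as a repressor of translation. Its signal was 1022 in replicate 1 (rank 16) and 956.5 in replicate 2 (rank 19), and 1963 in the IDR list (rank 19; 3R, 24108918 to 24109393). The summit lay between divergent genes, at -239 bp from eIF4EHP and -137 bp from CG18428. The 45884 bp eIF4EHP gene held 3 further IDR summits, with signals of 273.3, 195.7 and 138.0, the last in reach of a TSS of the syntaxin gene Syx1A. At eIF4A, the helicase, the signal was 60.7 in replicate 1 (rank 4389) and 52.5 in replicate 2 (rank 5248), where the highest summit was at 18 bp from a TSS. Its IDR peak (2L, 5981657 to 5982060, signal 106.6, rank 4763 of 4867, at 95 bp) was the member closest inside the threshold.

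No eIF4E gene other than eIF4EHP was bound. eIF4E1, the main cap-binding factor, had a pooled peak of rank 8597, with 6209 in replicate 1 and 15195 in replicate 2. eIF4E6 had a pooled peak of rank 9986, and eIF4E3, eIF4E4, eIF4E5 and eIF4E7 had none in any list. The scaffold genes eIF4G1 and eIF4G2 had pooled ranks of 9887 and 7985, and eIF4G1 also held an intronic IDR summit 7892 bp downstream of its TSS (4, 922621 to 923024, signal 210.3). Of the helicase cofactors, eIF4H1 ranked 8588 in the pooled list, while eIF4H2 and eIF4B had no peak in any list. eIF4B was the member farthest from any IDR summit, at 4762794 bp.

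eIF6, which holds the large ribosomal subunit apart from the small one, was the other very strong site. Its signal was 925.8 in replicate 1 (rank 25) and 866.1 in replicate 2 (rank 30), and 1779 in the IDR list (rank 26; 2R, 23850239 to 23850573). The summit lay at -111 bp from eIF6 and 82 bp inside the antisense RNA gene asRNA:CR45928, whose TSS was the nearer. That position is also inside the gene ytr, which had no TSS in reach. The next member by signal, eEF1gamma, was far below at 331.7, so eIF4EHP and eIF6 stood apart from the remaining 16 in all lists.

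eIF2A and eIF2D, which can bring initiator transfer RNA to the ribosome outside the eIF2 route in mammalian systems, were both bound. At eIF2A the signal was 102.8 in replicate 1 (rank 1859) and 65.9 in replicate 2 (rank 3690), with the IDR summit at -26 bp (3L, 21824737 to 21825140, signal 170.0). At eIF2D the signal was 77.9 in replicate 1 (rank 2955) and 114.4 in replicate 2 (rank 1492), with the summit at -38 bp (3R, 29151630 to 29152033, signal 176.2). Neither had another gene in reach, and their order by rank was opposite in the replicates.

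**Figure D2:**
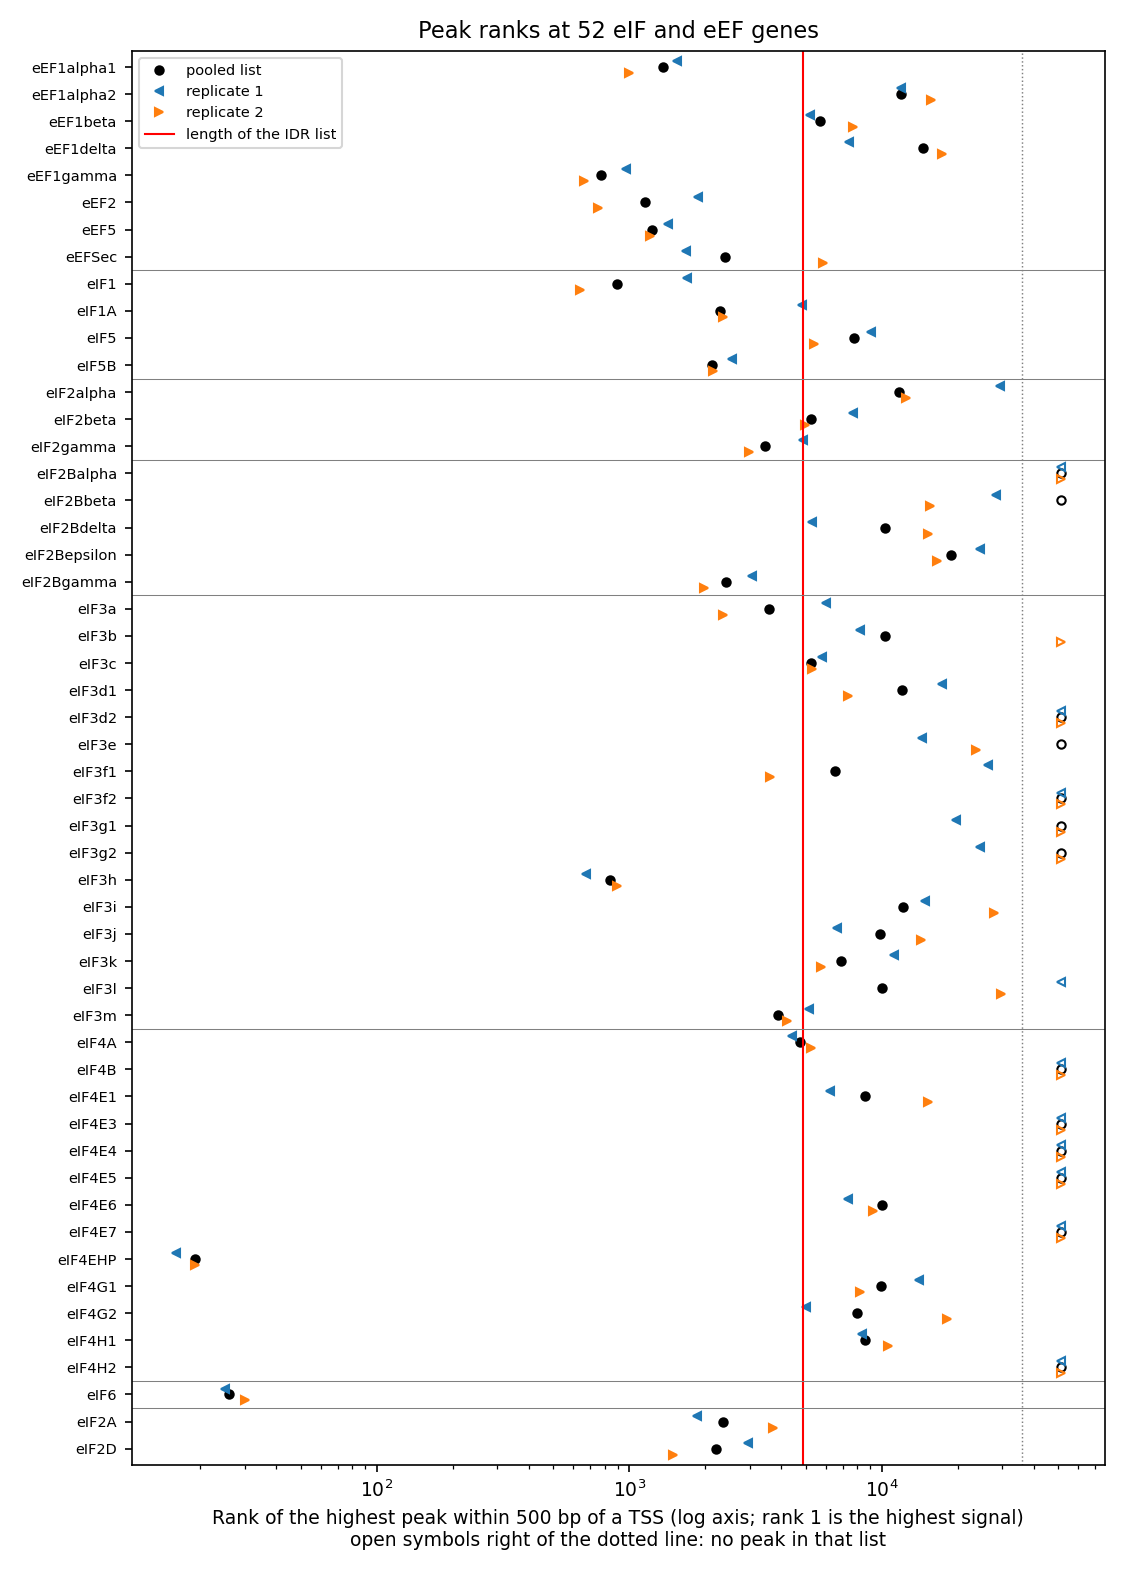
Rank of the highest peak within 500 bp of a TSS for each of the 52 genes, on a log axis, in the pooled list and in each replicate; horizontal lines part the role groups and the red line marks the 4867 peaks of the IDR list. eIF4EHP and eIF6 lie between ranks 16 and 30 in every list, the other bound genes between 637 and 6023, and 9 genes have no peak in any list.

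In all, 9 of 52 members (17.3%) had no summit in reach in any of the lists, against 31.5% of all protein-coding genes. These were eIF2Balpha, eIF3d2, eIF3f2, eIF4B, eIF4E3, eIF4E4, eIF4E5, eIF4E7 and eIF4H2. Neither the 7 members on X nor the 1 member on chromosome 4 were bound, where 15.8% of protein-coding genes on X and 17.5% on chromosome 4 were bound. On the large autosomal arms 18 of 44 members were bound, where 24% (2L) to 25.9% (3L) of the protein-coding genes of an arm were bound.

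Summits at the bound translation factors sat closer to the start site than at bound genes in general. The median distance was 49.5 bp over 18 members (quartiles 26.8 and 207.0 bp), against 129.5 bp over 3314 bound protein-coding genes (quartiles 65 and 215.0 bp). Within 50 bp of a TSS lay 9 of 18 member summits (50%), against 19.6% of all. Where no other gene was in reach, the median distance was 26 bp at 9 members, all within 95 bp, against 122.0 bp at 1511 genes. Replicate top lists gave the members medians of 40 bp (replicate 1, n = 15) and 50 bp (replicate 2, n = 17), against 133.0 and 125.0 bp for all genes. In the pooled list, the 21 members below the IDR list had a median of 114.0 bp, against 105.0 bp for all 5241 such genes. The shorter median distance was seen among the bound members and not among the weaker ones. The median signed position was -34.5 bp for the members and -119.0 bp for all, where negative is upstream.

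**Figure D3:**
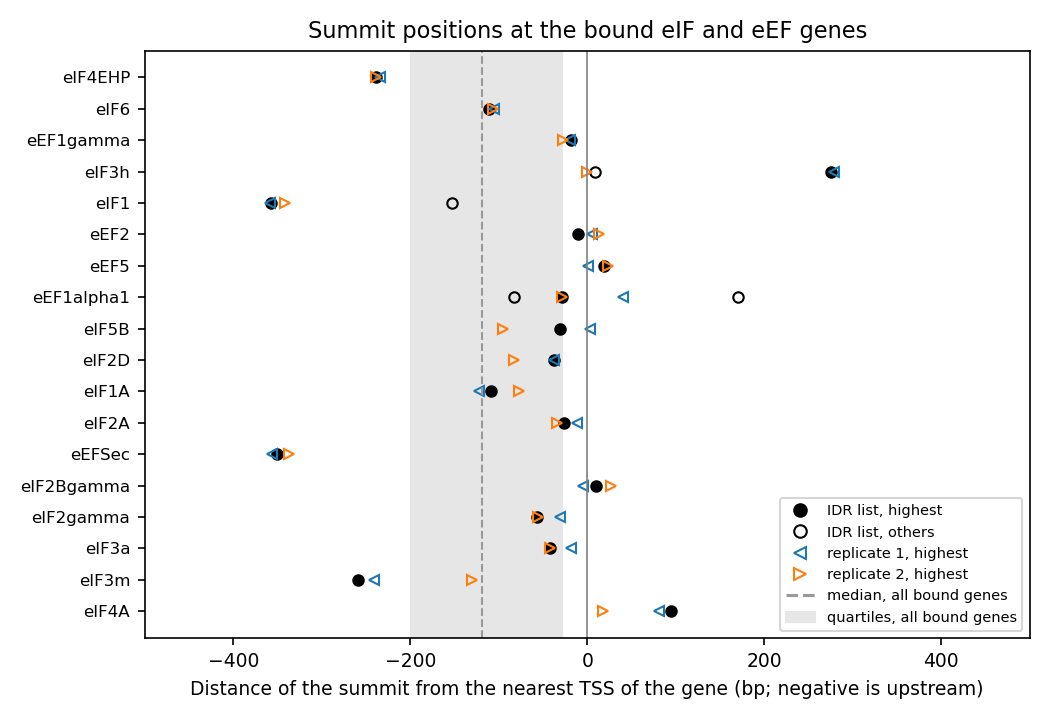
Distance in bp from the nearest TSS to the IDR summits of the 18 bound genes, ordered by signal from top to bottom, with the highest summit of each replicate; the grey band and dashed line are the quartiles and median of all bound protein-coding genes. Most members lie between the median of all genes and the TSS, and eIF1, eEFSec, eIF3m and eIF4EHP lie farther upstream.

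The base composition at member summits was also less AT-rich. Over 50 bp each side, GC content had a median of 43.6% at the 18 members (quartiles 36.9 and 49.3%), against 32.7% at all bound protein-coding genes (quartiles 25.7 and 42.6%). In the replicate top lists the members' median was 44.6% in each, against 33.7% in each for all bound genes. The members spanned a wide range, with eIF4EHP lowest at 16.8%, eIF1A at 23.8% and eIF2D at 27.7%, and eIF3a highest at 59.4%. The AT-rich run around the eIF4EHP summit is visible in the sequence printed above, as is the GC-richer eIF3a site. GC content and distance from the TSS moved together with membership, and the part of one in the other was not tested.

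The DRE occurred in a larger share of windows at the bound members than elsewhere. Within 100 bp of the summit the sequence TATCGATA occurred at 6 of 18 members (33.3%), against 5.06% of 2967 promoter summits and 7.61% of 13944 promoters of protein-coding genes. The promoter windows had the same length of 201 bp, centred at -83 bp from the canonical TSS, the median position of promoter summits. The members were eEF1gamma, eIF1, eIF1A, eIF2A, eIF2gamma and eIF3a, whose sites are printed above, and the DRE centre lay 8 bp from the summit in eIF3a, 20 bp in eEF1gamma, 60 bp in eIF2A, 64 bp in eIF1 and 90 bp in eIF1A. eIF2gamma held 3 copies, the nearest 16 bp from the summit. From the member's own TSS the DRE centre lay at -293 bp in eIF1, -199 bp in eIF1A and -86 bp in eIF2A. It lay at -38 bp in eEF1gamma, -34 bp in eIF3a and -5, -73 and -92 bp in eIF2gamma. The summits of eIF1, eIF1A, eIF2gamma and eIF3a were also in reach of another gene's TSS. Their DREs cannot be assigned to the member alone. Within 50 bp of the summit 3 members had a DRE (16.7%), against 2.19% of promoter summits.

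The DRE was also frequent at members that were not bound. In the promoter windows centred at -83 bp, 5 of 18 bound members held it (27.8%), namely eEF1gamma, eIF2gamma, eIF3a, eIF4A and eIF6. So did 6 of 34 members that were not bound (17.6%), namely eEF1delta, eIF2alpha, eIF3f1, eIF3l, eIF4B and eIF4E6. Among all protein-coding genes it was in 10.1% of 3313 bound and 6.84% of 10631 not bound, and among cytoplasmic ribosomal protein genes in 23 of 88 (26.1%). A DRE match is a description of the sequence, not of Dref binding.

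Other motifs, each searched on both strands in the same windows, were near the background or rested on 0 to 2 members. The Myc-type E-box CACGTG was at 2 members, eEF2 and eIF4A (11.1%, against 2.63% of promoter summits and 2.22% of promoters). The GAGA element GAGAG was at eEF1alpha1 alone (5.56%, against 27.6% and 22.8%), and TATAAA at 7 members (38.9%, against 36.4% and 35.1%). GGTCACACT, the core of motif 1, was at eIF5B alone (5.56%, against 3.47% and 4.14%), and the consensus of core promoter motif 7 at none (against 7.28% and 6.78%). With 18 windows each member is 5.56%, so counts of 0 to 2 separate little. The TCT initiator core CTTTNT, searched on the gene strand with its C within 5 bp of a TSS, was at 1 of 52 members, eEF1alpha1 (1.92%), against 30 of 88 ribosomal protein genes (34.1%) and 2.12% of all protein-coding genes.

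**Figure D4:**
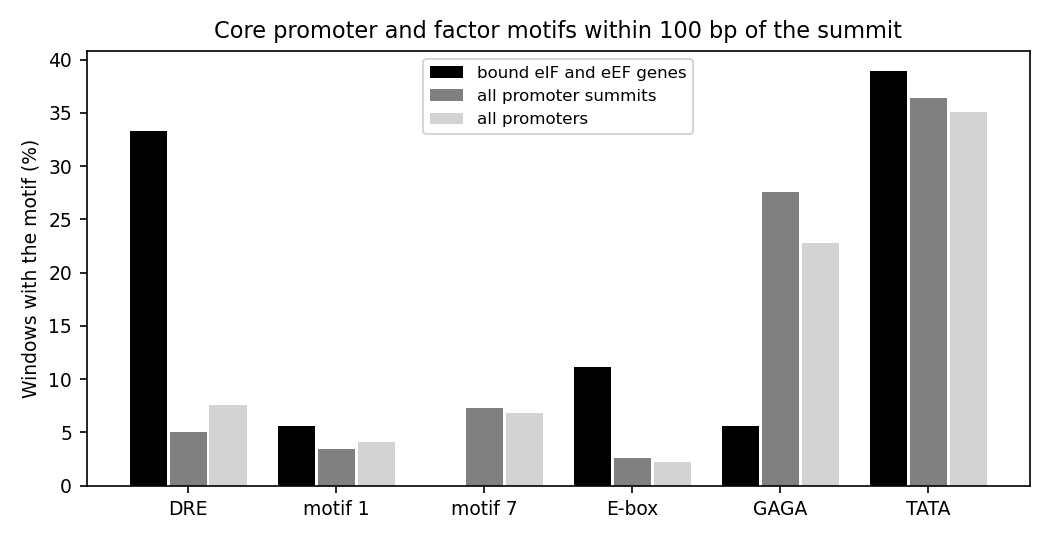
Bars give the percent of 201 bp windows that hold each motif, at the summits of the 18 bound members, at all 2967 promoter summits of the IDR list and at 13944 promoters. The DRE is in 33.3% of member windows, against 5.06% of promoter summits, and GAGA in 5.56%, against 27.6%.

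Across members, the replicates ordered the highest peaks in reach of bound genes more alike than those of the other genes. The highest peak was not always the same site in both replicates. At eIF3d1, not bound, it lay at 498 bp in replicate 1 and -46 bp in replicate 2. At the bound eIF3h it lay at 279 and 0 bp. The values below therefore compare genes rather than single sites. Spearman's rho of the signal in replicates 1 and 2 was 0.764 over the 39 members with a summit in both whole lists, 0.699 over the 18 bound and 0.0338 over the 21 others. Over all protein-coding genes it was 0.8 (n = 7348), 0.736 for bound (n = 3300) and 0.325 for the others (n = 4048). These are descriptions across genes measured in the same libraries. Bound genes come from the IDR list, which held the 4867 highest peaks of the pooled list. They were thus chosen by signal pooled from the same replicates that are compared here. The difference between bound and other genes is therefore no separate result. Of the 18 bound members, 13 were in the top list of both replicates (72.2%), against 78.8% of all bound protein-coding genes. Ranks of the 18 differed between replicates by a median factor of 1.55. The largest factors among the bound were 3.49 at eEFSec, 2.65 at eIF1, 2.57 at eIF3a and 2.50 at eEF2.

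Other translation genes, listed by role rather than by symbol, were bound at 18 of 37 (48.6%), against 23.8% of all protein-coding genes. Genes of translational control among the bound were Thor, the eIF4E-binding repressor (signal 333.1, rank 763), Lk6, an eIF4E kinase (330.9, rank 772), mTor, the growth kinase (240.9, rank 1306), S6k, its target kinase (190.7, rank 1946), and crc, the ATF4 homologue, whose translation responds to eIF2 phosphorylation (166.0, rank 2426). At Thor the replicate ranks were 745 and 684, and at Lk6 1078 and 706. In the pooled list 33 of the 37 (89.2%) had a summit in reach, against 61.3% of all.

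Of the other 13 bound genes, larp, whose mammalian relative binds the 5' ends of messenger RNAs, had the highest signal of the list (744.5, rank 193, with 191 in replicate 1 and 184 in replicate 2). pAbp, the poly(A)-binding protein gene (rank 550, with 2811 in replicate 1 and 596 in replicate 2), bel, a helicase gene (signal 140.9), and NAT1, an eIF4G relative (signal 199.7), were bound. So were the termination and rescue genes eRF1 (140.8), eRF3 (308.1), pelo (202.3), HBS1 (111.2) and the recycling ATPase gene pix (199.1). Of the 5 listed genes that modify elongation factors 3 were bound: Dhps, whose enzyme starts hypusine formation on eEF5 (210.3), and Dph1 and Dph2, of the diphthamide pathway that acts on eEF2 (114.0 and 391.6). The hypusine gene nero (pooled rank 5939) and the diphthamide gene Dph5 (pooled rank 10697) were not bound. Of the 9 mitochondrial factor genes listed, mRF1 alone was bound (130.8), with ranks of 2578 in replicate 1 and 6624 in replicate 2. Besides nero and Dph5 and the other 8 mitochondrial genes, the listed genes that were not bound were the eIF2 kinase genes Gcn2 and PEK, the eIF2 phosphatase subunit gene PPP1R15, Paip2, MCTS1, DENR, cup, 4E-T and mxt.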

How the data were processed

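Per the text deposited with the samples, the authors called peaks on dm6 for each replicate and for the pooled replicates against 1 control alignment, and derived the IDR list from these lists. For the aligner, the caller, their versions and the IDR cutoff, the record is: not given in the sources used here. Column 7 of each deposited list is the authors' signal value per peak; column 10 gives the summit (an offset from the start, a position rather than a measurement, and kept as other in the records). Read depth is unknown.

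Summits were placed on Ensembl release 115 (BDGP6.54) for arms 2L, 2R, 3L, 3R, 4 and X, with 18164 genes (transposable elements excepted), using Python 3.11.15, numpy 2.4.6 and scipy 1.17.1. All peaks ended within the arm lengths of the NCBI Release 6 sequence. A gene took every summit within 500 bp of any of its TSSs, and the highest gave its value. The 4867 highest peaks of each replicate formed its top list. The IDR peaks were the 4867 highest of the pooled list, so their ranks are those of the pooled list.

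No test was made: 1 group with 2 replicates offers no comparison between conditions, and gene lists are given as counts beside all protein-coding genes. The members, the other translation genes and the motifs were chosen with earlier results of these data known. Names follow a fixed rule: every member, and the bound genes among the 37 others, of which Tor, mEFG2 and Larp were matched through other symbols (mTor, mRRF2 and larp). Genes that share or contain a member's summit are named as well. Those of the 37 that were not bound were added to the text after their values were seen. Alternatives were 250 and 1000 bp, the 2433 highest IDR peaks, each replicate, midpoints, canonical, protein-coding or nearest TSSs, peaks without the 111 mostly soft-masked, the nearest summit and smaller motif windows. Summit assignment was tested on simulated data.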

Additional observations from a re-analysis of the deposited data

How the results depend on the processing

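The count of 18 bound members stayed within a factor of 1.5 under 9 alternatives, at 12 to 21. It was 16 at 250 bp (30.8%, against 19.8% of all protein-coding genes), where eEFSec and eIF3m were lost, and 21 at 1000 bp (40.4%, against 27.1%), where eIF2Bbeta, eIF2Bdelta and eIF3b were added. It was 14 with the 2433 highest IDR peaks (26.9%, against 13.6%) and 12 with the nearest TSS only (23.1%, against 17.9%), where eIF4EHP and eIF6 were among the 6 lost. Peak midpoints, canonical TSSs and leaving out mostly soft-masked peaks gave 18. Either replicate alone gave 15 to 17. Counting only summits in reach of no other gene, an alternative chosen after seeing the data, gave 9 of the 52 members. Of the 13945 protein-coding genes, 1511 had a highest IDR peak in reach of no other gene. The count of 39 members with a pooled summit (75%, against 61.3% of all protein-coding genes) was 31 to 42 under the alternatives. The median signal of bound members was 178.7, and 185.9 at 250 bp, and 102.7 to 105.5 on each replicate's own scale. The median offset of -34.5 bp was -42 to -11 bp in the replicates' top lists, a setting added after seeing the data. With 50 bp each side of the summit, the TATA share was 16.7%, and the motif 1, E-box and GAGA shares were 0 (0 of 18 members each). A smaller window can only lower a share. The cause of the other changes was not tested. Other translation genes were bound at 16 of 37 at 250 bp (against 19.8% of all protein-coding genes) and 19 of 37 at 1000 bp (against 27.1%). Read depth was not in the lists, so a missing peak is not shown to be missing binding.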
